A study of Mus musculus with 47 samples.

Results

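Translation initiation factors and the eIF4E-binding proteins (4E-BPs) were followed through neuronal differentiation at the level of their mRNAs. The group holds 40 genes of the 18850 with an mRNA 3′ UTR in the libraries. It was chosen by gene name and not by a cutoff on a value, but earlier results of these data were known. By name, 3 belong to eIF1 or eIF1A, 3 to eIF2, 5 to eIF2B and 12 to eIF3. A further 9 belong to eIF4F and its helpers, 2 are 4E-BPs and 6 are other factors. The 40 genes map to 65 RefSeq transcripts, and 13 genes have more than 1. For each gene, the transcript with the deepest coverage of its 3′ UTR was used.

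Initiation begins when eIF1 and eIF3 hold the small ribosomal subunit open and eIF2 brings the initiator tRNA as a GTP complex. The exchange factor eIF2B recharges eIF2 with GTP, and its block by phosphorylated eIF2 is the core of the integrated stress response. The cap is bound by eIF4F, made of the cap-binding protein eIF4E, the scaffold eIF4G and the helicase eIF4A. The 4E-BPs compete with eIF4G for eIF4E, and mTOR signaling releases this block by phosphorylating them. mRNAs of several translation proteins start with a 5′ terminal oligopyrimidine (TOP) tract, a C followed by a run of C or T, through which mTOR and LARP1 act on them.

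The libraries come from wild-type P19 cells, a mouse embryonal carcinoma line, either undifferentiated (D0) or at day 6 of differentiation in neuronal medium with 500 nM retinoic acid (D6). RNA was labeled with 4-thiouridine (4sU), a uridine analog that is read as C after alkylation, and T>C conversions thus count the RNA that took it up. The anabolic assay followed uptake of 4sU, with 3 libraries at each state before any 4sU was added. The catabolic assay followed the loss of label after 15 h of 4sU. According to the methods, D0 cells received 20 µM 4sU and D6 cells 500 µM, so that dose and state cannot be told apart in any library with 4sU. The design text gives 0, 3, 6 and 9 h for both assays, whereas the sample labels give 0, 1, 3 and 9 h, and the hours of the design text were used. At the point taken as 3 h of uptake, the conversion rate of whole libraries was 0.160% at D0 and 0.226% at D6. Libraries without 4sU had 0.171 and 0.166%. In the chase, the same point had 1.41 and 4.67%, compared with 1.42 and 4.63% at 0 h. Which hours are right was not tested. Of 16 groups, 15 have 3 libraries, and D6 at 6 h of chase has 2. P19 is 1 line, and the replicates are called biological without a statement on separate cultures, so that p-values measure the spread between these libraries.

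Reads on all distinct 3′ UTR intervals together ranged from 3447888 to 11677046 at D0 and from 1489528 to 7930149 at D6. The share of tested genes without a read in the libraries with 4sU was 4.59 to 19.4% at D0 and 9.56 to 43.5% at D6. In 6 D6 libraries it exceeded 25%. Of the D0 libraries with 4sU, replicate 26 (0 h of chase) stood apart. Its level was the lowest or highest of these in 24 members, and that of replicate 35, the next, in 8. The share of all genes is not given for this count. Among the libraries without 4sU, D0 replicate 56 stood apart. It held the lowest or highest of the 3 D0 values in 38 of the 40 members, compared with 80.5% of all genes. Members in which it was lowest had a median 3′ UTR of 976 bases and those in which it was highest had one of 265 bases. D6 replicates 38 and 39 were each lowest or highest of 3 in 31 members, compared with 72.02 and 63.3% of all genes. For replicate 38 the median 3′ UTR was 1300 bases where it was lowest and 172.5 where it was highest, and for replicate 39 it was 111 and 1019 bases. Of 6 neuronal markers, all were higher at D6, and their summed level was 469 to 650 CPM at D0 and 8366 to 9767 CPM at D6. The embryonal marker Pou5f1 had 153 to 380 reads at D0 and 0 to 3 at D6, and was lower (edgeR adjusted p = 0.0081). Sox2 had 4860 to 7498 and 3264 to 4359 reads and was not called (log2 difference -0.31 ± 0.33, edgeR adjusted p = 0.65). Zfp42 and Dppa5a had no reads in either state, and the glial markers Aqp4 and Olig2 had none. Acta2, a smooth muscle actin, had 470 to 728 reads at D0 and 3 to 26 at D6. In such bulk samples, fewer cells of a type and less RNA per cell cannot be told apart.

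Start sequences are shown for members with and without a TOP motif at the annotated start. RefSeq start windows on GRCm38.p6 matched 33 of the 40 members (not Eif2b3, Eif3e, Eif3h, Eif3i, Eif4ebp1, Eif4g2 and Eif6). A C at the annotated start followed by at least 4 more C or T, on the transcript strand only, was found in 2 members, 6.06% of those matched, compared with 3.01% of 27025 genes. In the window from 10 bases before to 17 bases after the start, a C followed by at least 6 C or T was found in 7 members (21.2%) and in 14.1% of genes. Eif3f and Eif2s3x have the motif at the start. Eif3a and Eif4b do not, though Eif4b is among the 7 with a run in the wider window, and are shown because they are on the study's TOP list of 92 names, taken from a published collection, as are Eif3e, Eif3f and Eif3h. The 30 bases around each start are given 5′ to 3′, 15 before it and 15 from it, and capitals mark the motif:
Eif3f, chr7:108934400-108934429, plus strand: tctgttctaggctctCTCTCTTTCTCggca
Eif2s3x, chrX:94212637-94212666, minus strand: ctgccgagcattttcCTTTTCTCTCCgagc
Eif3a, chr19:60790679-60790708, minus strand: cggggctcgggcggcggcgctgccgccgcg
Eif4b, chr15:102073758-102073787, plus strand: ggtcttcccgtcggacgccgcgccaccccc

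The first question was which factors differ in mRNA level between the states without 4sU. Estimates of initiation factors were mostly negative, that is, lower at D6. Of the 40, 6 were lower past an adjusted p of 0.05 (15% of members), compared with 5.33% of the 10234 genes tested, and 0 were higher, compared with 7.37% (edgeR quasi-likelihood test, n = 3 per state). The 6 were the 4E-BP Eif4ebp1, the translation factor Eif5a, the scaffold Eif4g1, the eIF3 core subunit Eif3b, the eIF4A cofactor Eif4b and Eif1ad, an eIF1A-domain protein. The estimate was negative in 32 of 40 members, 80% compared with 51.4% of all genes, and the median log2 difference was -0.54, compared with -0.05 over all genes. The D0 and D6 libraries did not overlap in 17 members, all with lower values at D6, compared with 17.1% of all genes in that direction and 18.4% in the other. DESeq2 called 10 members lower, compared with 8.58% of genes, and 0 higher, compared with 10.7%. The part of the markers that moved with the state in these values was not tested.

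**Figure D1:**
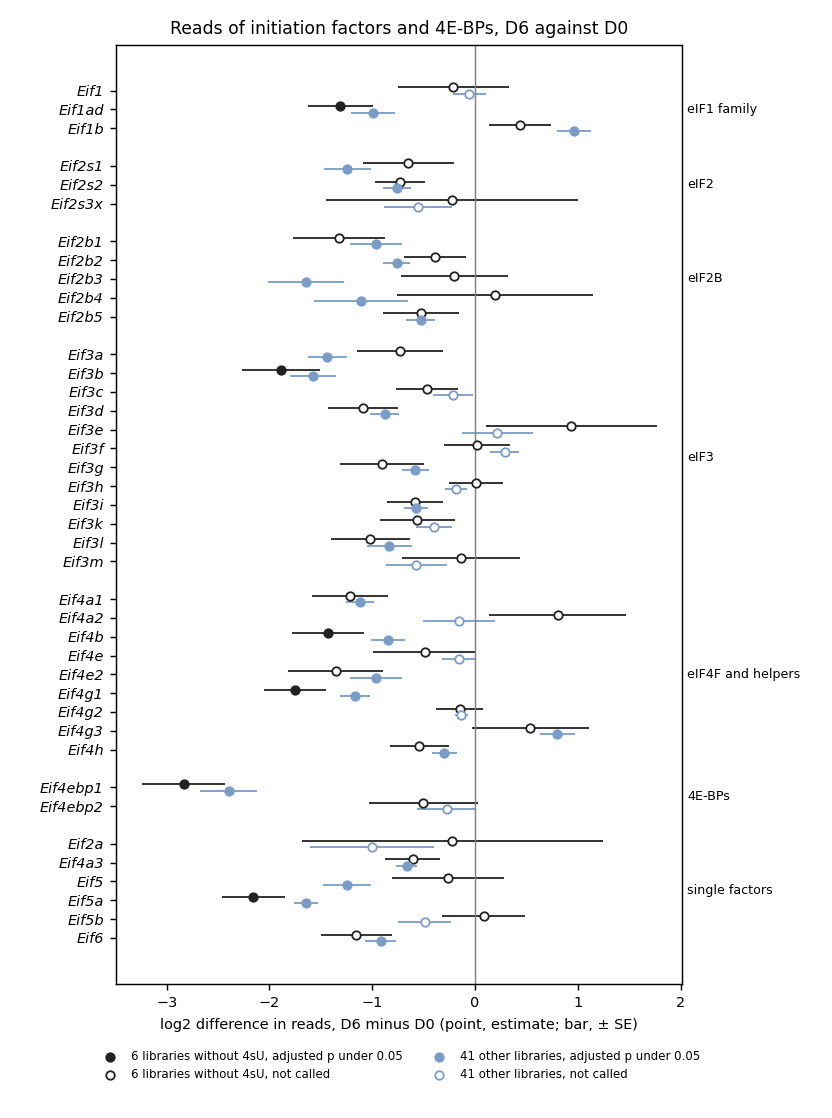
The plot shows the log2 difference in reads, D6 minus D0, with its SE for each member by complex, in the 6 libraries without 4sU (black) and the 41 others (blue), and filled points passed an adjusted p of 0.05. Most points lie left of 0, and Eif4ebp1 has the lowest estimate in both sets, -2.83 and -2.40.

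Eif4ebp1, which encodes 4E-BP1, had the lowest estimate of the group. Its 3′ UTR lies at chr8:27275112-27275656 on the plus strand (mm10). Its level was 303, 386 and 411 normalized CPM (counts per library size after TMM scaling) in the D0 libraries and 25.2, 64.0 and 64.9 in the D6 libraries. The states did not overlap, and the log2 difference was -2.83 ± 0.40 (SE, edgeR adjusted p = 0.0011). The other 4E-BP, Eif4ebp2 (3′ UTR at chr10:61432497-61433796, minus strand), had 126, 60.2 and 253 CPM at D0 and 88.4, 64.3 and 157 at D6. These ranges overlapped, and its log2 difference was -0.50 ± 0.53 (edgeR adjusted p = 0.65). D0 replicate 57 held its highest value, and without that library the estimate for Eif4ebp2 was 0.16, so that its direction rests on 1 library.

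In the eIF4F core, the scaffold fell while the cap-binding subunit did not pass the test. Eif4g1 (3′ UTR at chr16:20692432-20692883, plus strand) had 389, 333 and 405 CPM at D0 and 103, 86.8 and 144 at D6, without overlap (log2 difference -1.75 ± 0.30, edgeR adjusted p = 0.0036). Eif4e had 152, 69.8 and 149 CPM at D0 and 53.6, 58.5 and 151 at D6, and 1 D6 library was as high as D0 (-0.49 ± 0.50, edgeR adjusted p = 0.64). Its estimate was -1.13 to -0.22 when 1 library was left out, and it was not called in any of these fits. The helicase Eif4a1 had 412, 258 and 628 CPM at D0 and 167, 142 and 250 at D6. Its libraries did not overlap but the adjusted p was 0.054 (log2 difference -1.22 ± 0.37, edgeR). It passed with DESeq2 (adjusted p = 0.014), and in edgeR with upper-quartile scaling, no filter or all transcripts (adjusted p of 0.0495, 0.024 and 0.045). Its paralog Eif4a2 had 33.2, 37.4 and 25.1 CPM at D0 and 56.7, 21.2 and 89.0 at D6, overlapping (0.80 ± 0.67, edgeR adjusted p = 0.54). Eif4a2 shares 64 bases of its 3′ UTR with Rfc4 on the other strand.

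Of the eIF4F helpers, Eif4b, which stimulates the helicase (3′ UTR at chr15:102095334-102097173, plus strand), had 272, 439 and 212 CPM at D0 and 125, 87.1 and 129 at D6 (log2 difference -1.43 ± 0.35, edgeR adjusted p = 0.023). The related cofactor Eif4h had a log2 difference of -0.54 and the cap-binding repressor Eif4e2 one of -1.36, neither past the threshold. The paralogous scaffolds Eif4g2, which lacks the eIF4E-binding part, and Eif4g3 had -0.15 and 0.54, also not past it. With 1 library left out, the estimate was -0.25 to 0.02 for Eif4g2 and 0.08 to 0.90 for Eif4g3.

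Among factors outside eIF4F, Eif5a, whose hypusinated protein helps ribosomes through difficult peptide bonds (3′ UTR at chr11:69916712-69917438, minus strand, in 2 intervals), had 1295, 790 and 1412 CPM at D0 and 284, 189 and 308 at D6. Every D0 library was above every D6 library (log2 difference -2.16 ± 0.31, edgeR adjusted p = 0.0011). Eif3b, which helps to hold the eIF3 core together (3′ UTR at chr5:140442424-140443358, plus strand), had 320, 482 and 361 CPM at D0 and 62.5, 90.7 and 160 at D6 (-1.89 ± 0.38, edgeR adjusted p = 0.0083). Eif1ad (3′ UTR at chr19:5370086-5371511, plus strand) had 209, 355 and 281 CPM at D0 and 118, 93.9 and 129 at D6 (-1.31 ± 0.32, edgeR adjusted p = 0.021). Both were lower in every D6 library than in any D0 library.

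**Figure D2:**
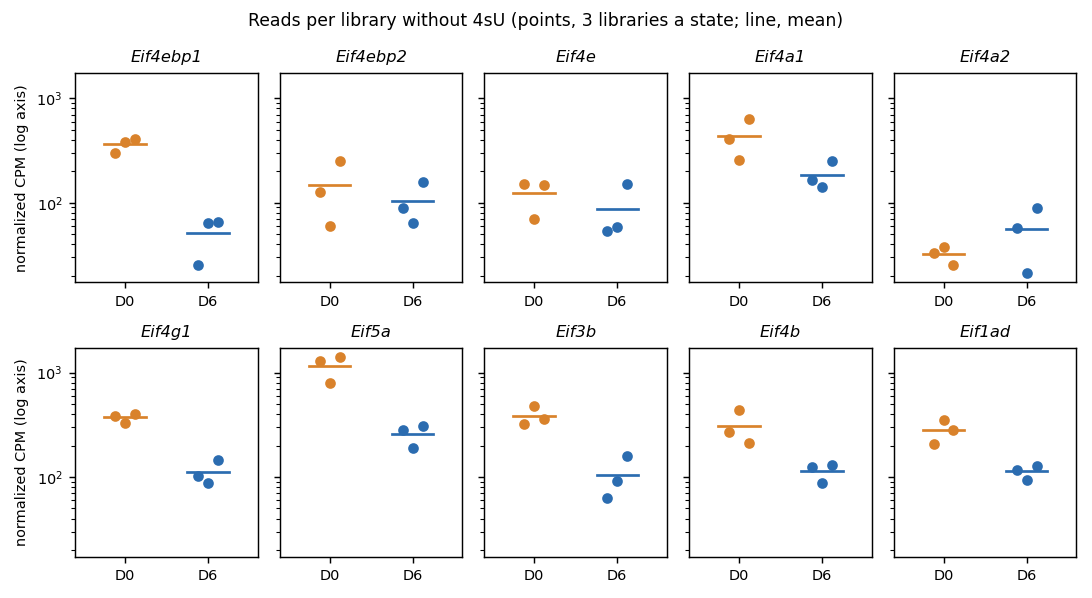
Points are normalized CPM in each library without 4sU, on a log axis, with 3 libraries per state and a line at their mean, for the 6 members called, Eif4ebp2 and the eIF4F core. Libraries of the 6 called members and of Eif4a1 do not overlap between D0 and D6, while those of Eif4ebp2, Eif4e and Eif4a2 do.

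Calls for Eif4ebp1, Eif5a, Eif4g1 and Eif3b held in all 6 fits that left out 1 library each. Eif4b was called in 3 of them and Eif1ad in 2, neither without any single D6 library. Without D0 replicate 56, 9 members were lower, compared with 4.85% of genes, with Eif2b1, Eif3a and Eif4a1 added, and 0 were higher, compared with 7.84%. The count was 4 without each D6 library in turn, and 2.70 to 3.56% of genes were lower in those fits.

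The same measure was then taken in the 41 libraries with 4sU, with assay and time point in the model. There, 24 members were lower (60% of members), compared with 26.7% of 12111 genes, and 2 were higher, compared with 19.8% (edgeR). The median log2 difference of members was -0.71, compared with -0.23 over all genes, and 36 of 40 were negative, 90% compared with 57.3% of all genes. All 6 members called without 4sU were among the 24. Because the 4sU dose differed with the state, its part in these values was not tested. Without the 6 libraries in which over 25% of genes had no read, 27 members were lower and 2 higher, compared with 27.6 and 23.5% of genes. With upper-quartile scaling, 28 members were lower and 2 higher, compared with 30.1 and 17.7% of genes.

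In eIF2B, all 5 subunits were lower in the libraries with 4sU, where 26.7% of genes were. The regulatory subunits Eif2b1, Eif2b2 and Eif2b4 had log2 differences of -0.96, -0.76 and -1.11, and Eif2b3 and Eif2b5 of the catalytic part had -1.65 and -0.53. None of them was called without 4sU, where Eif2b1 came closest (-1.32 ± 0.45, edgeR adjusted p = 0.082). Eif2b4 has a 3′ UTR of only 43 bases with 8 T. In eIF2, the α subunit Eif2s1, the site of stress phosphorylation, had -1.24, the β subunit Eif2s2 had -0.76 and the γ subunit Eif2s3x had -0.56, of which the first and second passed.

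In eIF3, 6 of 12 subunits were lower in the libraries with 4sU, compared with the same 26.7% of genes. They were the scaffold Eif3a (-1.44), Eif3b (-1.58), the cap-contacting subunit Eif3d (-0.88), the RNA-binding Eif3g (-0.58), Eif3i (-0.58) and Eif3l (-0.83). The other 6 were not called. Eif3c had a log2 difference of -0.22, Eif3e 0.22, Eif3f 0.29, Eif3h -0.18, Eif3k -0.40 and Eif3m -0.57. Without 4sU, Eif3f had a D0 mean of 526.6 ± 231 CPM and a D6 mean of 533 ± 66.3 (SD, n = 3), and Eif3h had 515 ± 132 and 518 ± 32.3. Their estimates there were 0.02 and 0.01, and upper-quartile scaling turned both to -0.01 and -0.02. Eif3m shares 65 bases of its 3′ UTR with Ccdc73 on the other strand.

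Among the 6 other factors, 4 were lower in the libraries with 4sU, again beside 26.7% of genes. Eif5, which makes eIF2 hydrolyse its GTP, had D0 values of 107 to 180 CPM (median 127, n = 21) and D6 values of 0.936 to 98.9 (median 61.96, n = 20). It was the only member without overlap between all D0 and D6 libraries with 4sU, compared with 2.16% of all genes in that direction (and 1.95% in the other), and its log2 difference was -1.24 ± 0.23 (edgeR adjusted p = 9.7e-06). Without 4sU, however, Eif5 overlapped and its estimate was -0.26. Fits that left out 1 of those libraries gave -0.64 to 0.30, so that its direction there was not stable. Eif5a (-1.64), the exon junction helicase Eif4a3 (-0.67) and Eif6 (-0.92), which keeps the ribosomal subunits apart, were lower as well. Eif2a, an alternative tRNA carrier, and the subunit-joining factor Eif5b had -1.005 and -0.49 and did not pass. Eif5b overlaps Rev1 on the other strand over 301 bases.

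Eif4ebp1 was lower in the libraries with 4sU (log2 difference -2.40 ± 0.27), with a D0 range of 218 to 485 CPM (median 296) and a D6 range of 3.37 to 248 CPM (median 41.3). Eif4ebp2 was not called (-0.28 ± 0.29, edgeR adjusted p = 0.46). Eif4g1 (-1.17), Eif4a1 (-1.12), Eif4e2 (-0.96), Eif4b (-0.85) and Eif4h (-0.30) were lower. Eif4e (-0.15), Eif4a2 (-0.16) and Eif4g2 (-0.13) were not called.

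The 2 members that were higher were Eif4g3 (log2 difference 0.80 ± 0.17, edgeR adjusted p = 8.4e-05) and Eif1b (0.96 ± 0.16, edgeR adjusted p = 1.5e-06), a close paralog of the start-codon factor Eif1. Eif1b had D0 values of 119 to 233 CPM (median 174) and D6 values of 58.96 to 797 (median 354). Neither was called without 4sU, where Eif1b had 0.44 ± 0.30. Eif1 had -0.06 in the libraries with 4sU, and Eif1ad was lower (-0.99).

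Paralogs were set against each other within each library, as log2 ratios of CPM after adding 0.5. These pairs were chosen after the values had been seen, and the ratios are given without a test. The ratio of Eif4g3 to Eif4g1 without 4sU was -1.38 ± 1.28 at D0 and 1.17 ± 0.41 at D6 (SD, n = 3). For Eif4ebp2 to Eif4ebp1 it was -1.55 ± 1.01 and 1.02 ± 0.92, and for Eif4a2 to Eif4a1 -3.67 ± 0.92 and -1.91 ± 0.69. In these 3 pairs the states did not overlap. For the helicases they nearly met, at -2.77 in D0 replicate 56 and -2.71 in D6 replicate 38. The D0 means of the first 2 pairs depend on replicate 56. For Eif4g3 to Eif4g1 it had -2.86, and replicates 55 and 57 had -0.55 and -0.75. For Eif4ebp2 to Eif4ebp1 it had -2.67, and the same replicates had -1.26 and -0.70. The ratios of Eif1b to Eif1 (1.07 and 1.75) and Eif4e2 to Eif4e (0.35 and -0.42) overlapped between the states. In the libraries with 4sU, the means were -1.24 and 0.79 for the scaffolds, -1.16 and 0.91 for the 4E-BPs and -3.76 and -3.01 for the helicases, with overlap in each pair.

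**Figure D3:**
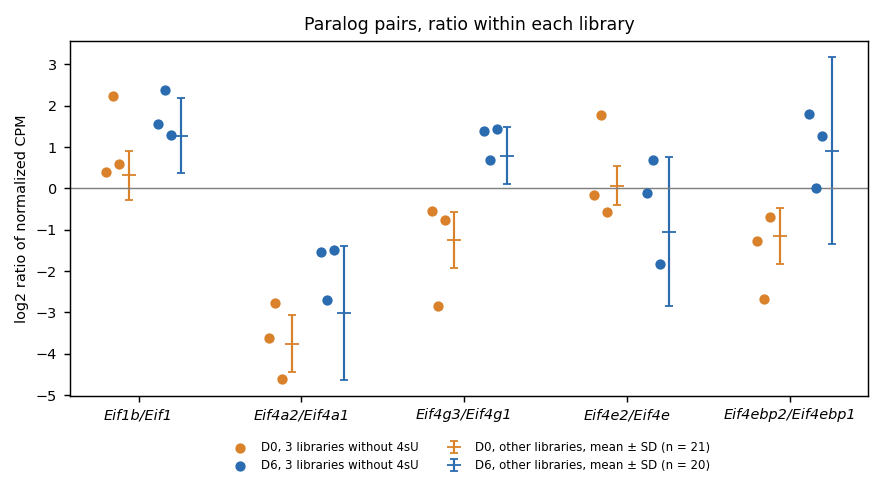
The plot shows the log2 ratio of normalized CPM between paralogs within each library, with points for the 3 libraries per state without 4sU and bars for the mean ± SD of the 21 D0 and 20 D6 libraries with 4sU. Ratios of Eif4g3 to Eif4g1 and of Eif4ebp2 to Eif4ebp1 lie higher at D6 than at D0 without 4sU. With 4sU at D6, the SD was 0.69 for the scaffold pair and 2.27 for the 4E-BP pair.

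Reads were also compared between 15 h of 4sU and none within each state, as a check on 4sU exposure. No member was called at D0 or at D6 (edgeR), compared with 0% of 9879 genes at D0 and, at D6, 0% higher and 0.0101% lower of 9904. At an unadjusted p under 0.05, 0 members passed at D0, compared with 2.01% of all genes, and 3 at D6, which is 7.5% compared with 5.71%. These comparisons share the libraries without 4sU with the first one. DESeq2 called 0 at D0 and at D6 called Eif2b5, the catalytic eIF2B subunit, as lower, compared with 1.04% of genes, and 0 as higher, compared with 0.606% (edgeR log2 difference -0.93 ± 0.28, adjusted p = 0.43). The difference between the states in this change was called for 0 members (edgeR), compared with 0 and 0.00892% of 11205 genes called higher and lower. At an unadjusted p under 0.05 there were 2 members, 5% compared with 4.76% of all genes (edgeR).

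The label after 15 h was compared between D6 and D0 relative to the conversion rate of each whole library, which was 1.42 ± 0.064% at D0 and 4.63 ± 0.34% at D6 (SD, n = 3). No member was called (edgeR), with 0 by DESeq2, compared with 0 and 0.0874% of 9155 genes called higher and lower. At an unadjusted p under 0.05 there were 0 members (edgeR), compared with 5.55% of all genes. Eif4ebp1 had the lowest estimate, with rates of 1.80, 2.07 and 1.40% at D0 and 4.74, 0.126 and 2.25% at D6 (log2 difference -1.26 ± 0.86). Eif3k was next, with 2.40, 1.93 and 0.892% at D0 and 2.82, 2.29 and 2.10% at D6 (-1.24 ± 1.01). Eif2b3 had the highest, with 1.82, 0.611 and 0.606% and 8.25, 0 and 9.51% (0.88 ± 1.43, or -1.72 after background subtraction). For Eif3l, 1.13, 1.07 and 1.25% stood against 5.90, 6.49 and 5.92% (0.70 ± 0.75). For Eif4ebp1 and Eif2b3, 1 D6 library was at or near 0 and far below the others.

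The label at 9 h of uptake, as a ratio to that of the 15 h libraries, was compared between the states. Over whole libraries, the rate at 9 h was 87.5% of that at 15 h at D0 and 77.8% at D6, and the median over members was 81.96 and 71.5%. The edgeR test called 0 members, as did DESeq2, compared with 0% of 9152 genes called in each direction. At an unadjusted p under 0.05 there were 2 members (edgeR), 5% compared with 7.75% of all genes. Eif4e had the lowest estimate (log2 difference of ratios -3.45 ± 1.18, edgeR adjusted p = 0.51). Its rates at 9 h were 1.16, 1.84 and 1.76% at D0 and 0.343, 0.0285 and 1.47% at D6, while at 15 h they were 0.283, 1.12 and 1.13% and 4.09, 4.51 and 3.34%. Eif1 was next lowest (-1.25 ± 1.13, or 0.69 after background subtraction), with 1.71, 1.00 and 1.90% at D0 and 4.21, 0.0977 and 4.08% at D6 after 9 h, and 1.45, 1.04 and 0.824% and 4.39, 3.77 and 6.81% after 15 h. A single D6 library is thus far below the other two for Eif1.

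The highest estimates of this contrast were those of Eif3k (1.08 ± 1.40) and Eif4a1 (0.87 ± 0.36, edgeR adjusted p = 0.58). Eif4a1 had 0.903, 0.802 and 0.908% at D0 and 4.27, 6.49 and 4.54% at D6 after 9 h, and 1.29, 1.80 and 1.28% and 5.70, 4.84 and 5.68% after 15 h. Eif3k had 0.522, 0.911 and 0.614% at D0 and 2.97, 0.0745 and 2.68% at D6 after 9 h.

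The question of the chase was which factors lost label faster or slower than the library as a whole. These tests share the 0 h libraries with the test of label after 15 h. Over whole libraries, 29.2 ± 1.16% of the rate at 0 h was left at D0 and 19.1 ± 1.35% at D6 (SD, n = 3), and the median gene had 17.3 and 11.3%. Members had a median of 23.7% at D0 (range 0.386 to 73.3) and 13.4% at D6 (2.16 to 75.2). Each member was tested against its whole library, so that an estimate of 0 means the same loss as all reads together. On this scale the median log2 difference over all genes was -0.61 (D0) and -0.67 (D6), and that over members was -0.31 (D0) and -0.49 (D6).

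**Figure D4:**
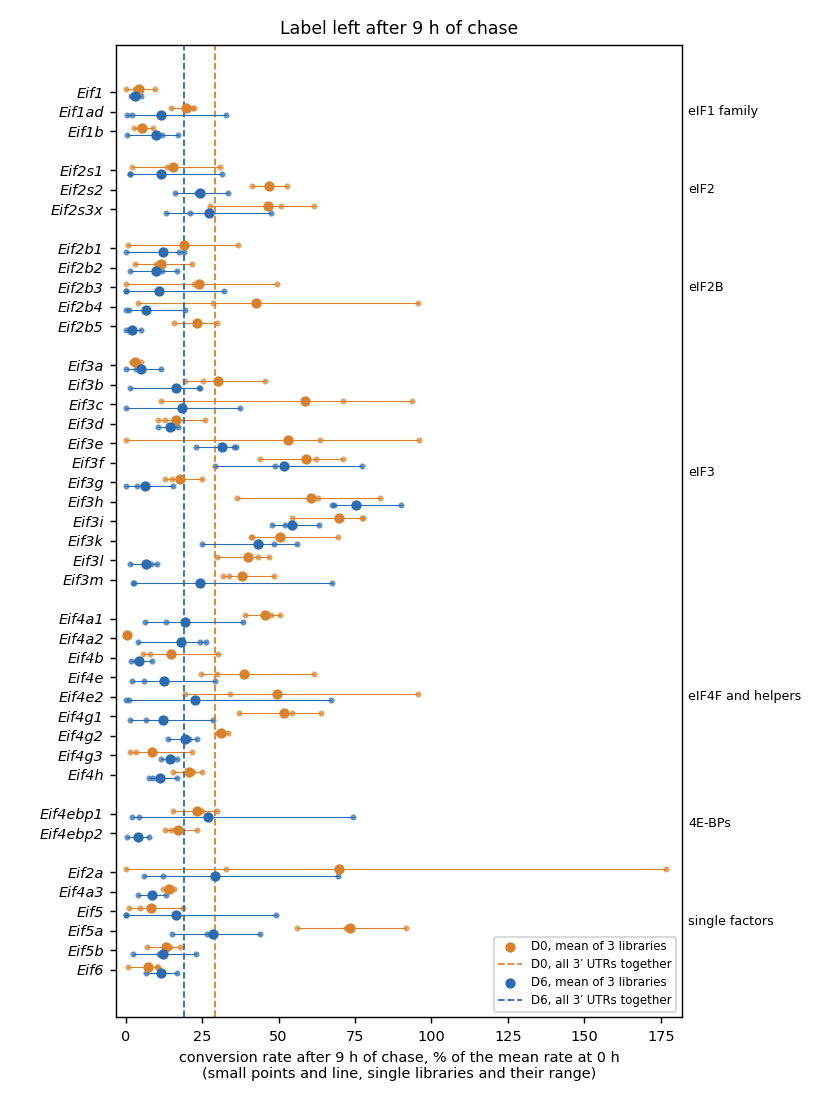
Large points are the mean conversion rate after 9 h of chase, as a percentage of the mean rate at 0 h, for each member and state, small points with a line are the 3 libraries, and dashed lines are all 3′ UTRs together (29.2% at D0, 19.1% at D6). Eif3h, Eif3f and Eif3i lie right of the dashed lines in both states, and Eif1, Eif1b and Eif3a lie left of them.

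At D0, 1 member kept more label than its library, compared with 1.08% of 9155 genes, and 3 kept less, compared with 2.17% (edgeR). Eif5a kept 73.3 ± 17.8%, with rates of 0.704, 0.887 and 0.742% at 0 h and 0.713, 0.437 and 0.561% at 9 h (log2 difference 1.33 ± 0.38, edgeR adjusted p = 0.045). The ranges overlap, and 1 library at 9 h was above the lowest at 0 h. Eif4a2 kept 0.386 ± 0.338%, with 2.23, 0.726 and 3.65% at 0 h and 0, 0.0139 and 0.0116% at 9 h (-6.06 ± 1.62, edgeR adjusted p = 0.031). These 9 h libraries hold 2 conversions over 19952 covered T positions. Eif3a, the eIF3 scaffold, fell from 1.40, 2.19 and 1.06% to 0.0343, 0.0767 and 0.0341% (-3.22 ± 0.93, edgeR adjusted p = 0.049). D0 libraries without 4sU had 0.073% for Eif3a and 0.212% for Eif4a2. The 9 h rates of both thus lie near or below this background, and the size of their estimates is not resolved. Eif1b fell from 1.70, 1.15 and 1.97% to 0.0754, 0.0414 and 0.145% (-2.45 ± 0.71, edgeR adjusted p = 0.049). Without single libraries of 0 or 9 h, 0 or 1 of these calls remained, with 0 without replicate 25, 27, 34, 35 or 36 and only Eif4a2 without replicate 26. DESeq2 called 2 members with more label at D0, compared with 2.53% of genes, and 4 with less, compared with 9.1%.

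At D6, 2 members kept more label, compared with 1.05% of 9155 genes, and 2 kept less, compared with 1.88% (edgeR). Eif3h, a subunit of the outer eIF3 module, kept 75.2 ± 12.8%. Its rates were 4.22, 4.78 and 4.11% at 0 h and 3.93, 2.97 and 2.95% at 9 h, lower in each 9 h library than at 0 h (log2 difference 1.97 ± 0.35, edgeR adjusted p = 0.0006). This call held in all 6 fits that left out 1 library. Eif3f, the other outer subunit with an MPN fold, had 3.67, 3.18 and 4.78% at 0 h and 1.14, 3.00 and 1.90% at 9 h, 51.9 ± 24.2% left (1.44 ± 0.35, edgeR adjusted p = 0.019). Its call was lost without replicate 07, 08 or 17. Both are on the TOP list. Of its other members, Eif3e kept 31.5 ± 7.41%, Eif3a 4.89 ± 5.89% and Eif4b 4.53 ± 3.48% at D6, and none of these 3 was called. DESeq2 called 3 members with more label at D6, compared with 1.99% of genes, and 4 with less, compared with 7.19%.

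The 2 members with less label at D6 were Eif2b5 and Eif4a3. Eif2b5 fell from 4.29, 4.74 and 2.38% to 0.194, 0 and 0.0528% (log2 difference -3.11 ± 0.77, edgeR adjusted p = 0.022), a call lost without replicate 07, 08 or 18. Eif4a3 fell from 5.05, 6.71 and 3.81% to 0.453, 0.687 and 0.206% (-1.15 ± 0.32, edgeR adjusted p = 0.045), a call kept in 1 of the 6 fits. Eif1 had the second lowest estimate, with 4.39, 3.77 and 6.81% at 0 h and 0.256, 0.137 and 0.0842% at 9 h (-2.63 ± 0.99, edgeR adjusted p = 0.14), which background subtraction turned to 1.10. The second highest was Eif3i, with 4.63, 5.92 and 3.69% and 3.01, 2.27 and 2.48% (1.52 ± 0.44, edgeR adjusted p = 0.053).

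Subunits of eIF3 spanned most of this range. At D0, Eif3a kept 3.12% and Eif3i 69.6 ± 13.3%, and at D6 Eif3a kept 4.89% and Eif3h 75.2%. Eif3h kept 60.8 ± 23.4% at D0, with 0.804, 1.22 and 1.62% at 0 h and 0.763, 0.441 and 1.01% at 9 h, and Eif3f kept 59.03 ± 13.9%. Eif3i had 1.49, 1.78 and 1.46% at 0 h and 1.22, 0.855 and 1.22% at 9 h. Part of the rate of Eif3i is not label, since libraries without 4sU had 0.842% at D0 and 0.585% at D6. Less that background, Eif3i kept 34.7 ± 28.6% at D0. For Eif2s2 and Eif3c the background at D0 was 0.598 and 0.603%, and these 3 were the members in which it exceeded 25% of the rate at 0 h. Differences between subunits were not tested.

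The scale of this test sets how many members are called. Centred on the median gene in place of the whole library, 7 members kept more label at D0 and 6 at D6, compared with 4.07 and 2.94% of genes, and 0 kept less, compared with 0.644 and 0.797%. The median over all genes was then 0.20 and 0.07. Eif2s2, Eif3f, Eif3h, Eif3i, Eif4g2 and Eif5a were called in both states and Eif4a1 at D0. After background subtraction (limma), Eif3h and Eif5a were called at D0, compared with 1.53% of genes, and 8 members at D6, compared with 8.18%, among them Eif3h and Eif3f. No gene was called with less label after that subtraction (0%). Eif3h was called at D6 under each of these settings.

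**Figure D5:**
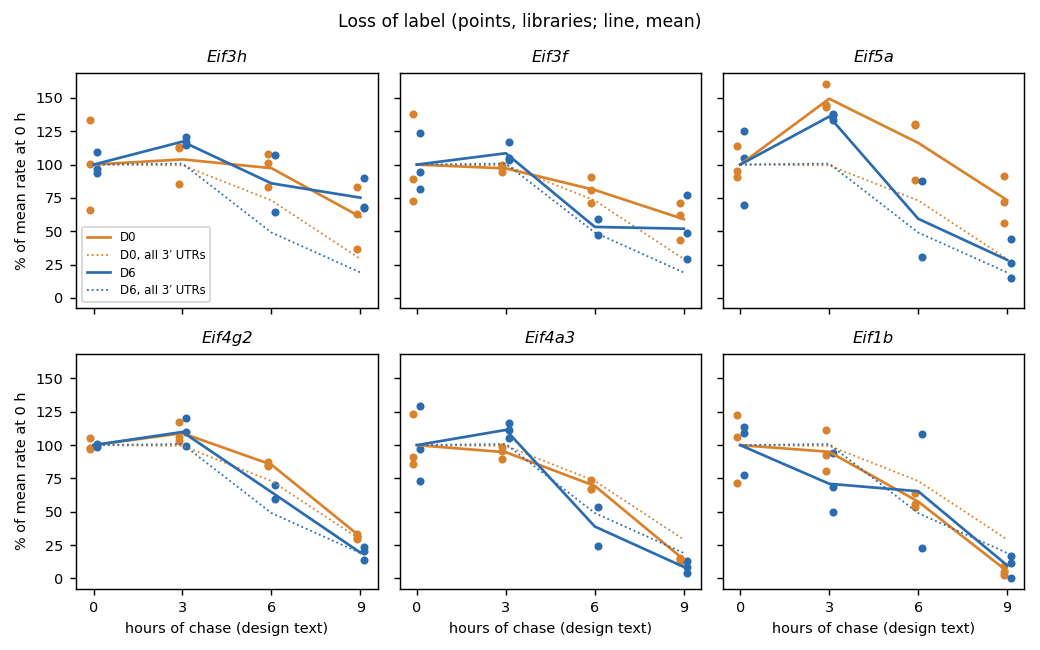
Conversion rate as a percentage of the mean rate at 0 h over the hours of chase, with points for libraries, solid lines for means and dotted lines for all 3′ UTRs together, for 6 members at D0 (orange) and D6 (blue). Eif3h stays above the dotted line of its state at 9 h in both states, while Eif4a3 and Eif1b lie below it.

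Whether the loss of label differed between the states was tested as a difference in slope over the hours. No member was called by edgeR or DESeq2, compared with 0 and 0.0218% of 9155 genes called higher and lower (edgeR). At an unadjusted p under 0.05 there was 1 member (edgeR), 2.5% compared with 7.71% of all genes. Eif4a2 had the highest estimate (0.52 ± 0.22 log2 units per hour, edgeR adjusted p = 0.53). At D0 its rates were 2.23, 0.726 and 3.65% at 0 h, 0.826, 1.28 and 1.17% at 3 h, 0.209, 0.356 and 0.741% at 6 h and near 0 at 9 h. At D6 they were 4.10, 4.27 and 4.29%, then 3.93, 0.111 and 1.07%, then 0 and 0, and 1.11, 0.167 and 1.03% at 9 h. The D6 rates thus did not decline steadily, but both values of 0 at 6 h rest on few covered T positions (570 and 799).

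Eif1b had the next highest slope (0.17 ± 0.12), with rates at D0 of 1.80, 1.30 and 1.49% at 3 h and 0.899, 1.02 and 0.856% at 6 h. At D6 Eif1b had 5.85, 5.62 and 4.00% at 0 h, 4.85, 2.57 and 3.55% at 3 h, 5.58 and 1.17% at 6 h and 0.887, 0.607 and 0.0226% at 9 h. The lowest slopes were those of Eif3l (-0.23 ± 0.12) and Eif2b5 (-0.22 ± 0.14). Eif3l kept 39.98 ± 8.87% of its label at D0 and 6.65 ± 4.73% at D6, with 9 h rates of 0.497, 0.345 and 0.540% and 0.624, 0.515 and 0.0784%. In between, Eif3l had 1.31, 1.32 and 1.17% at 3 h and 1.12, 1.10 and 0.863% at 6 h at D0, and 7.86, 5.57 and 0.877% and 0 and 1.74% at D6. The value of 0 for Eif3l rests on only 24 covered T positions. Eif2b5 had 1.13, 1.13 and 1.00% at 0 h, 1.15, 1.40 and 1.16% at 3 h, 0.977, 0.896 and 0.971% at 6 h and 0.171, 0.326 and 0.260% at 9 h at D0. At D6 Eif2b5 had 3.89, 1.39 and 4.91% at 3 h and 2.96 and 1.70% at 6 h. None of these 4 differences in slope passed the test.

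With an R squared over 0.6, an exponential decay gave a half-life for 10 members at D0 (25%), 7 at D6 (17.5%) and 3 in both states (7.5%), compared with 14.4, 15.7 and 4.03% of 9155 genes. Eif2s2 had 703 ± 108 min at D0 and 441 ± 103 min at D6 (SE of the fit), but 464 ± 86.1 and 386 ± 98.0 min after background subtraction. Eif4a2 had 154 ± 49.9 and 130 ± 38.7 min, and Eif4g3 had 216 ± 42.6 and 283 ± 79.0 min. With the hours of the labels, Eif4a2 had 66.4 and 43.8 min and Eif4g3 had 110 and 159 min. With 0 and 9 h only, Eif4a2 turned direction, with 67.4 ± 761 min at D0 and 220 ± 32.8 min at D6, Eif4g3 had 153 and 194 min, and Eif2s2 had 492 and 264 min. With all time points at the hours of the design text, Eif3h, Eif3f, Eif4e and Eif5a had no fit of that quality in either state. With 0 and 9 h only, each of them had one at D6 but not at D0. Eif4e also had one at D6 with the hours of the labels.

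Related genes were read from 2 lists in the libraries without 4sU. Of 15 other initiation-associated genes tested, 2 were higher and 1 lower, compared with 7.37 and 5.33% of genes. They were Eif4e3, a further cap-binding homolog (log2 difference 2.22 ± 0.53, edgeR adjusted p = 0.020), the poly(A)-binding partner Paip1 (1.61 ± 0.39, edgeR adjusted p = 0.023) and the reinitiation factor Denr (-1.29 ± 0.27, edgeR adjusted p = 0.011). The median over the 15 was -0.92. Of 17 regulators tested, Pdcd4, an inhibitor of eIF4A, was higher (3.15 ± 0.61, edgeR adjusted p = 0.0073) and Larp1, which binds TOP mRNAs, was lower (-1.23 ± 0.35, edgeR adjusted p = 0.043), and the median was 0.27. In the libraries with 4sU, 3 of 15 factors were higher and 10 lower, and 3 of 20 regulators higher and 4 lower, compared with 19.8% of genes higher and 26.7% lower.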

How the data were processed

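QuantSeq 3′ libraries of wild-type P19 cells at D0 (24) and D6 (23) were used. The authors mapped the reads with SLAMdunk 0.3.3 to mm10 and deposited, for each 3′ UTR interval, the counts of reads, of covered T positions and of T>C conversions that were used here. The files hold RefSeq intervals, and 0 reads are listed as mapping to several places. Paralogs and overlapping 3′ UTRs may still share reads. The labels give 4sU times, and the doses come from the methods, which name 13 h of labeling in 1 place and 15 h in another.

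Intervals were summed per NM transcript, and the transcript with most covered T positions was kept per gene. All 40 members passed a mean of 1000 covered T positions per library, as did 9155 genes. Reads were tested with the edgeR 4.0.16 quasi-likelihood test in R 4.3.3 after filterByExpr and TMM. All 40 members passed that filter too. Conversions were tested likewise with covered T positions times the library's conversion rate as offset. P-values were adjusted by Benjamini-Hochberg over all genes, with 0.05 as threshold. Half-lives were fitted as exponential decay with R squared over 0.6. The reads carry no molecular identifiers, and errors are those between libraries. Alternatives used DESeq2 1.42.0, limma 3.58.1, other scaling, filters, transcripts, centring and hours, and each library left out. The fits were tested on simulated data. No pair of libraries was identical.

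Members called with an absolute log2 difference of at least 1 in reads without 4sU, both 4E-BPs, the eIF4F core and the 2 highest and 2 lowest members of each label test are given by library. The members and lists were chosen with earlier results of these data known. Dhx29 was not analysed here. Figures were drawn with matplotlib 3.10.9 in Python 3.11.15.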

Additional observations from a re-analysis of the deposited data

How the results depend on the processing

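No paired analysis was possible because the replicate numbers of the labels differ in every library. Without 4sU, DESeq2 called 10 members in reads, all lower, compared with 8.58% of genes, and fits without 1 library called 4 to 9. DESeq2, upper-quartile scaling, no filter and all transcripts each kept the 6 calls. Each also added calls, with Eif4a1 and Eif6 among them. The share of all genes called in the last 3 is not given here, so their number of members is not read. With 15 h of 4sU against none at D6, DESeq2 called 1. The count for label left at D0 was 2 after background subtraction, 7 when centred on the median gene and 0 to 1 without 1 library (1.77 to 2.59% of genes). At D6 it was 7 with DESeq2, 8 after background subtraction and 1 to 7 without 1 library, the most without replicate 16 of 9 h (1.28 to 4.86% of genes, also the most without replicate 16). Members with half-lives in both states numbered 26 with 0 and 9 h only, of which 20 were shorter at D6, 13 with the hours of the labels (11 shorter) and 38 without a minimum of R squared (32 shorter), which is 65, 32.5 and 95% of members compared with 24.7, 9.82 and 68.4% of genes. Of genes so fitted, 63.1, 75.9 and 67.2% were shorter at D6, compared with 76.9, 84.6 and 84.2% of members. In the main fits 74.5% of genes and 66.7% of members (2 of 3) were shorter, and after background subtraction 66.7% of both. Background subtraction turned the sign of Eif1 in uptake (0.69) and in label left at D6 (1.10) and of Eif2b3 in label after 15 h (-1.72), and leaving out 1 library gave -0.92 to 0.16 for Eif4ebp2 in reads without 4sU, positive without D0 replicate 57. None of these was called. Of the members called for less label, background subtraction also turned Eif4a3 at D6 (-1.15 to 2.42) and Eif1b at D0 (-2.45 to 0.01). Eif3a and Eif4a2 at D0 and Eif2b5 at D6 stayed negative. The cause of these shifts was not tested. Among values of single members, 426 kept direction and side of the threshold, 33 lost a call and 11 gained one. Upper-quartile scaling moved the median of all genes in the libraries with 4sU from -0.23 to -0.37 and that of members to -0.85. The lowest rates rest on few conversions, such as 2 for Eif4a2 at D0, which limits the label tests. The fit without the 6 sparse libraries was chosen after seeing the data.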
